A study of Rattus norvegicus with 8 samples.

Results

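The genes described here carry the growth hormone signal through the liver cell: the receptor Ghr, the kinase Jak2, the transcription factors Stat5a and Stat5b, the feedback inhibitors Cish and Socs2, the repressor Bcl6 and the hormone targets Igf1 and Igfals. They were chosen by name, as every probe set (a group of short probes directed at 1 transcript) whose only gene symbol in the platform annotation is 1 of these 9. That gave all 9 genes, of 14217 genes named on the array, and 13 probe sets of 31099: 3 for Igf1, 2 each for Ghr and Cish, and 1 for each of the other genes. The list was put together with the difference between hydrogen water and control livers already known. All differences between the groups at these 13 probe sets are therefore given as a description, and nothing is inferred from how many of them moved.

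Livers came from male rats of the outbred Sprague-Dawley stock, 8 weeks old, which had drunk for 4 weeks either hydrogen water, which held 0.7 mM dissolved molecular hydrogen, or sterilized distilled water (control). Both groups ate the same commercial diet and drank freely. The study kept 8 animals per group, and 4 arrays per group were analysed. The labels do not say which animal an array stands for or whether RNA was pooled. The spread between these arrays, on which each SD and SE rests, may therefore be technical. Each SE comes from limma, a linear model that draws a probe set's variance towards that of others of similar brightness.

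Growth hormone, released by the pituitary, binds its receptor on hepatocytes, and the kinase JAK2 attached to the receptor then phosphorylates STAT5A and STAT5B. These enter the nucleus and bind DNA at the target genes. In the male rat the hormone is secreted in pulses, and STAT5 activity in liver follows them. Cish and Socs2 are targets that act back on the pathway as inhibitors, whereas Igf1 and Igfals encode the circulating growth factor IGF-I and the subunit that holds it in a stable complex in blood.

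Signals below are normalized to a common distribution over the 8 arrays. Differences are hydrogen water minus control on the log2(signal + pseudocount) scale, with a pseudocount of 2.05. The deposited arrays were not on 1 scale: their median signals ran from 17.2 to 26.8, and the 2% trimmed mean signal was 92.0 ± 10.4 on hydrogen water arrays and 116 ± 18.8 on control arrays (SD, n = 4 each). An exact permutation test, two-sided, gave p = 0.114 for this difference. The log2 ratio of 3′ to 5′ signal of Gapdh, a measure of RNA integrity, was 0.38 ± 0.08 with hydrogen water and 0.22 ± 0.10 in controls (SD, n = 4 each), with p = 0.0571 by the same exact permutation test. The number of arrays limits the precision. Of 8 hepatocyte markers, among them Alb and Ttr, all were bright enough to be tested and 0 passed in the limma fit between the groups, 0 of them at an unadjusted p under 0.05. Their summed signal ran from 61214 to 64101 with hydrogen water and from 59403 to 63704 in controls. Of 43 markers of 9 other cell types or tissues, 22 had a probe set bright enough to be tested and 0 passed. An unadjusted limma p under 0.05 was found for 2 of them, against 12.2% of all genes. These were the endothelial genes Stab2 and Lyve1, higher with hydrogen water by 0.42 ± 0.13 and 0.38 ± 0.13 (SE). The endothelial genes Pecam1 and Kdr differed the other way, by -0.04 ± 0.17 and -0.10 ± 0.10. Whole liver was measured, so fewer cells of a type and less RNA per cell cannot be told apart.

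Over the 13 probe sets, Cish was far lower with hydrogen water, and Socs2 was lower in the mean with groups that overlapped after normalization. Stat5a and Stat5b were higher in every hydrogen water array than in any control array after normalization but not as deposited. Ghr, Jak2 and Igf1 differed by 0.20 or less on the log2 scale. The limma fit across 15521 probe sets called 127, or 0.818%, at an adjusted p of 0.05, 69 higher and 58 lower. Of the 13, 2 were called, both for Cish and both lower. All 13 passed the filter on dim signals, which required a mean log2 signal of at least 4.42. The Cish probe sets met it only through the control arrays, since their hydrogen water means lay under that limit, so they had to differ in order to be tested. After normalization the 2 groups did not overlap at 4 of the 13, against 7.48% of all tested probe sets. The share of calls that were higher was 54.3%, and it was 4.16% without normalization between arrays, 29.4% with median centring and 70.8% with scaling by the spike-ins.

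**Figure D1:**
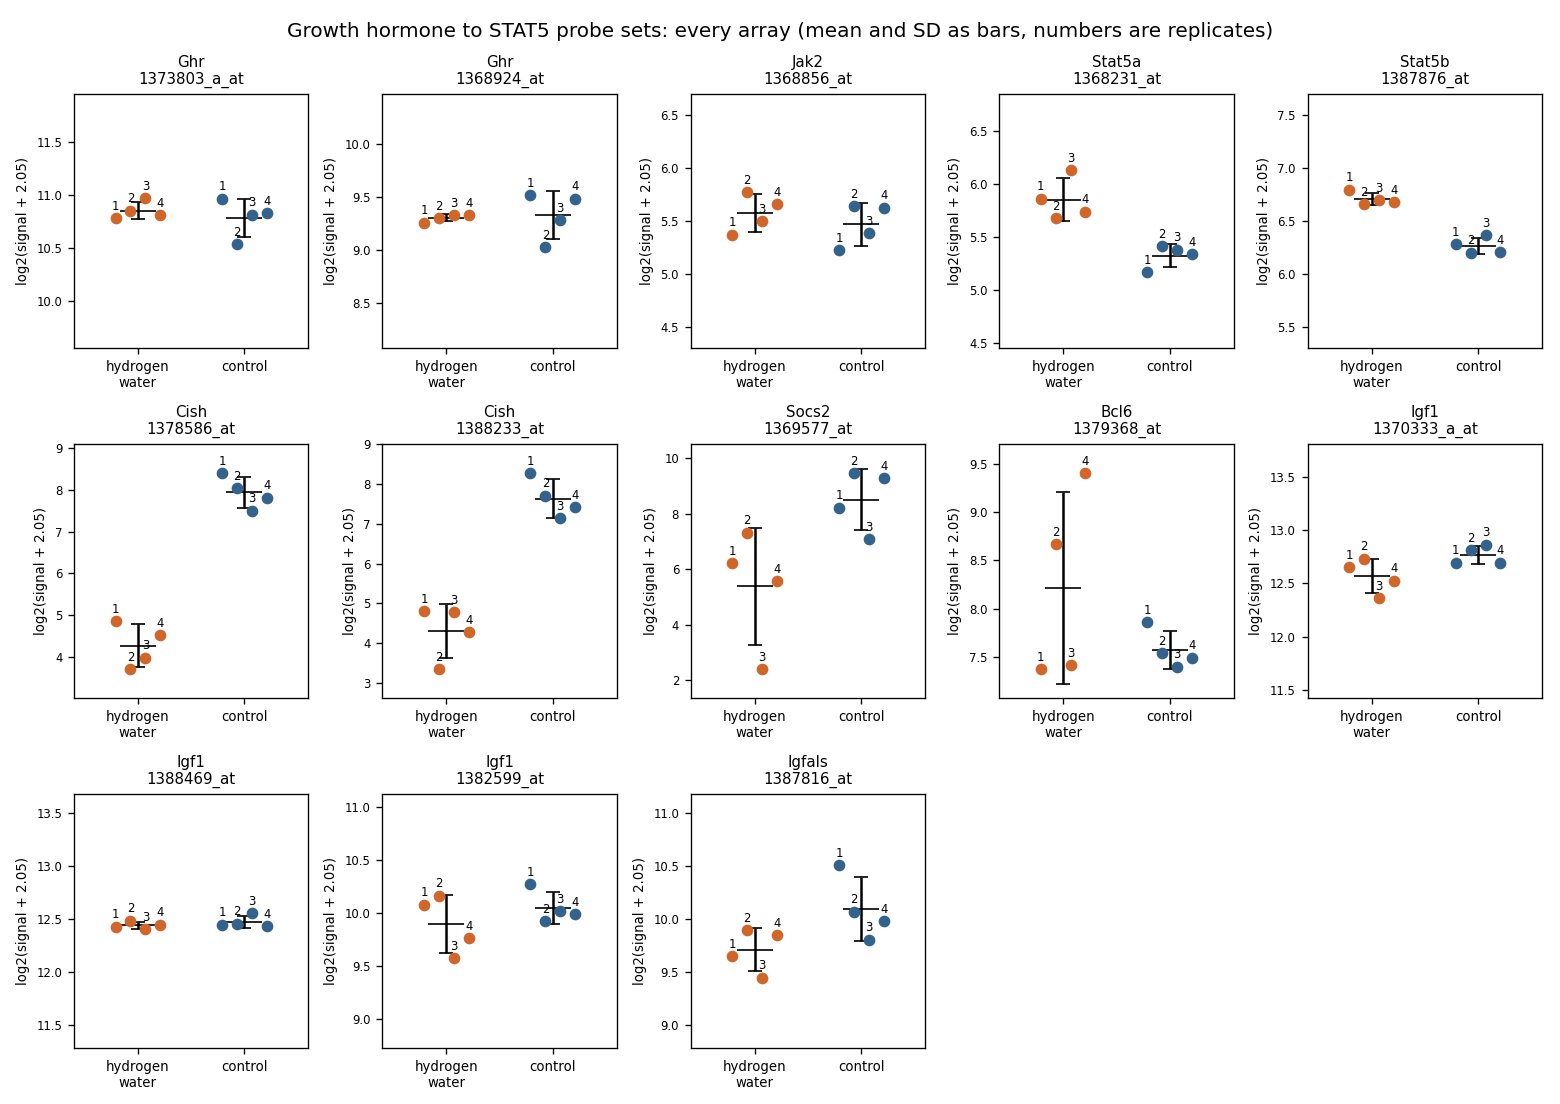
Each panel shows 1 probe set, with log2(signal + 2.05) on the vertical axis, the 4 hydrogen water arrays left (orange) and the 4 control arrays right (blue), numbered by replicate; bars give the mean and SD. Both Cish panels and, after normalization, both Stat5 panels show groups that do not overlap, and the Socs2 and Bcl6 panels show hydrogen water arrays spread wider than controls.

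Ghr, the receptor, was measured by 2 probe sets. The one with probes that can bind several transcripts, 1373803_a_at, ran from 1766 to 2007 on hydrogen water arrays and from 1489 to 2002 on control arrays. The second, 1368924_at, ran from 611 to 641 with hydrogen water and from 520 to 731 in controls. At both, the hydrogen water arrays lay almost wholly inside the control range. The differences were 0.07 ± 0.09 and -0.02 ± 0.10 (SE), the first turning negative without normalization or without control array 2, the second turning positive with spike-in scaling or without control array 1 or 4. The 2 probe sets moved together from array to array, with control array 2 lowest at both. Jak2, the kinase bound to the receptor, gave signals of 39.3 to 52.5 with hydrogen water and 35.3 to 47.7 in controls. Its difference was 0.11 ± 0.18 (SE), and it was negative, at -0.23, without normalization, where the median of all tested probe sets was also -0.33.

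Stat5a and Stat5b encode the paired transcription factors that carry the signal into the nucleus. Stat5a had signals of 56.3, 49.3, 68.3 and 51.6 on hydrogen water arrays 1 to 4, against 34.0, 40.7, 39.7 and 38.6 on control arrays 1 to 4. Stat5b had signals of 109, 99.1, 102 and 100.2 with hydrogen water, against 75.9, 71.6, 80.6 and 71.7 in controls. Every hydrogen water array was above every control array at both genes in these normalized signals. As deposited the groups overlapped, with Stat5a at 43.2 to 55.1 with hydrogen water and 36.9 to 48.9 in controls, and Stat5b at 81.2 to 98.8 with hydrogen water and 65.2 to 102 in controls. The part of array brightness in this was not tested. Stat5a was 1.44-fold higher with hydrogen water (0.53 ± 0.17 on the log2 scale, SE) and Stat5b 1.36-fold higher (0.44 ± 0.11). Neither was called in the fit across all probe sets. Without normalization the differences were 0.19 and 0.08, where the median of all tested probe sets was -0.33.

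The spread of the 2 STAT5 genes was not alike. Within-group SD was 0.07 for Stat5b, smaller than at all but 3.05% of tested probe sets, and 0.16 for Stat5a. Hydrogen water array 3 had the highest Stat5a signal and an ordinary Stat5b signal, and the deviations of the 2 genes from their group means had a correlation of 0.08 over the 8 arrays, given as a description. In the rat reference assembly GRCr8 the 2 genes lie on chromosome 10 on opposite strands, pointing away from each other, with 9.91 kb between their annotated starts. Probe sequences were not used here, so binding of 1 gene's probes to the transcript of the other was not tested.

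Cish encodes a protein that binds activated cytokine and growth hormone receptors and blocks STAT5 there. Its gene is a direct STAT5 target, and in the mouse its promoter is known for repeated STAT5 sites. The rat promoter is shown because both Cish probe sets were called and because these repeats can be seen in it. The 250 bases before the annotated start, at chr8:116850719-116850968 on the plus strand of GRCr8 from RefSeq, read as follows, with each match to the STAT5 motif TTCNNNGAA in capitals.
Cish: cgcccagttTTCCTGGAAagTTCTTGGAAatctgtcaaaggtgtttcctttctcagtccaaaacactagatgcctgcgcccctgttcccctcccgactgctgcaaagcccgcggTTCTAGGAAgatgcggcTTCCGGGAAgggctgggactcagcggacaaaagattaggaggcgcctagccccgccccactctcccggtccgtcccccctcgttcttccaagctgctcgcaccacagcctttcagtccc

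The motif is its own reverse complement, so a match counts for both strands, and no match overlaps another. The 4 matches form 2 pairs. The distal pair is TTCCTGGAA, from -241 to -233 counted from the start, and TTCTTGGAA, from -230 to -222. The proximal pair is TTCTAGGAA, from -136 to -128, and TTCCGGGAA, from -119 to -111. Among 33469 rat promoters of the same length, 7.67% held at least 1 match, 0.418% at least 2, and 7 promoters at least 3; 2 promoters held 4 or more, Cish among them. Promoters of 8 of the 9 genes were available, and that of Socs2 was not, so it was not searched. Of these 8, Cish was the 1 with a match in this window. The search covers only these letters and this window, and a match shows no binding.

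Both Cish probe sets gave the same picture. At 1378586_at the signals were 27.0, 11.0, 13.8 and 20.9 on hydrogen water arrays 1 to 4, against 335, 262, 180 and 224 on control arrays 1 to 4. At 1388233_at they were 25.7, 8.11, 25.4 and 17.4 with hydrogen water, against 307, 208, 140 and 169 in controls. The highest hydrogen water signal was below the lowest control signal by a wide margin at either probe set.

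The difference was -3.67 ± 0.26 at the first Cish probe set and -3.34 ± 0.32 at the second, on the log2 scale (SE). The median of all signals was 20.5, and 2 of the 4 hydrogen water signals of each probe set lay below it. No detection calls were used here, so these signals cannot be set apart from background, the size of the difference is uncertain and no fold is given. Over 19 other settings the difference ran from -3.96 to -3.20 at the first and from -3.65 to -2.87 at the second. The sign was the same in each, but the settings of filter, trend or block cannot change a difference. These differences chose the gene, so the settings describe the size and add no support for the call. Within groups, control array 1 was the highest control and hydrogen water array 2 the lowest hydrogen water array at both probe sets.

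Socs2, the second feedback inhibitor, is a STAT5 target whose protein marks the growth hormone receptor for degradation. Signals were 72.9, 158, 3.24 and 45.9 on hydrogen water arrays 1 to 4, against 296, 702, 134 and 623 on control arrays 1 to 4. Hydrogen water array 3 was far below the other 3. After normalization hydrogen water array 2 was above the lowest control, array 3, so the groups overlapped. As deposited they did not overlap, at 2.77 to 148 with hydrogen water and 172 to 629 in controls. The 3.24 of hydrogen water array 3 lay below the median of all signals, 20.5. Without detection calls it cannot be set apart from background, so the mean, SD and difference that include it are uncertain in size. The mean log2 signal was 5.38 ± 2.11 with hydrogen water and 8.51 ± 1.10 in controls (SD, n = 4 each), a difference of -3.13 ± 0.84 (SE).

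That SE is the widest of the 13, and Socs2 was not called in the fit across all probe sets (limma adjusted p = 0.149). Its spread among hydrogen water arrays was larger than at 99.9% of tested probe sets. Without hydrogen water array 3 the difference was -2.13. It kept its sign over all 19 other settings, but the settings of filter, trend or block cannot change a difference. Socs2 was called in 2 of the 19, without normalization and with the replicate number as a block. Where the 2 inhibitors are set side by side, Cish separated the groups after normalization and Socs2 did not. Hydrogen water array 2 had the lowest Cish signals of its group but the highest Socs2 signal.

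Bcl6 encodes a repressor that recognises DNA much like that bound by STAT5, and in mouse liver growth hormone lowers it. Signals were 164, 405, 169 and 674 on hydrogen water arrays 1 to 4, against 230, 183, 166 and 178 on control arrays 1 to 4. Hydrogen water arrays 2 and 4 were above all controls, whereas hydrogen water arrays 1 and 3 were level with the lowest controls. Arrays 2 and 4 were also the brighter of the hydrogen water arrays as deposited, with medians of 19.7 and 20.2 against 17.2 and 17.7 for arrays 1 and 3; the part of brightness in the Bcl6 signals was not tested. The difference was 0.64 ± 0.37 (SE), the SD was 0.99 with hydrogen water and 0.20 in controls, and without hydrogen water array 4 the difference was 0.25. Bcl6 was not called.

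**Figure D2:**
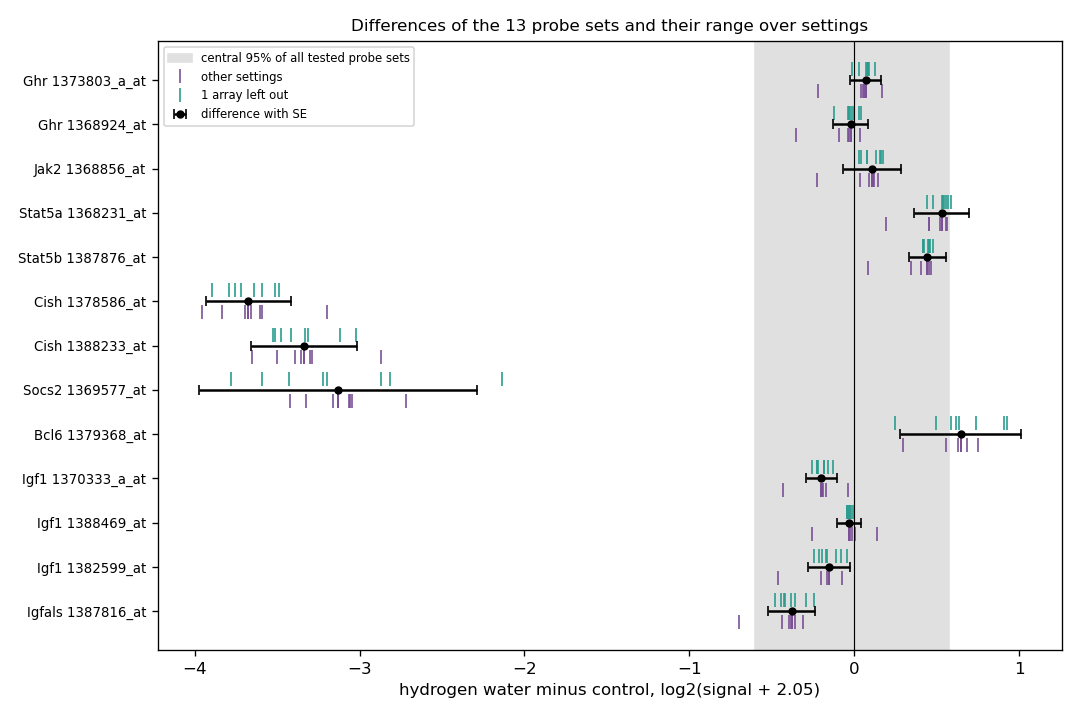
Black points give the difference, hydrogen water minus control, of each of the 13 probe sets on the log2 scale with its SE; ticks above them give the value with 1 array left out and ticks below them the value under other settings, and the grey band holds the central 95% of all tested probe sets, from -0.60 to 0.58. Cish and Socs2 lie far left of the band, Bcl6 just right of it and the rest inside it.

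Igf1 is the hormone's main endocrine target in liver. The probe set 1370333_a_at had signals of 6448, 6817, 5271 and 5896 on hydrogen water arrays 1 to 4, against 6643, 7207, 7470 and 6643 on control arrays 1 to 4. Hydrogen water arrays 3 and 4 and array 1 were below all controls, and array 2 was above 2 of them. As deposited the groups did not overlap, at 4665 to 6408 with hydrogen water and 6584 to 8920 in controls. The difference was -0.20 ± 0.09 (SE), a signal 1.15-fold lower with hydrogen water, and -0.13 without hydrogen water array 3. It was -0.04 with spike-in scaling and -0.43 without normalization, where the median of all tested probe sets was -0.33. At 1388469_at the signals ran from 5416 to 5728 with hydrogen water and from 5523 to 6008 in controls, a difference of -0.03 ± 0.07 that turned positive with median centring or spike-in scaling. At 1382599_at they ran from 759 to 1143 with hydrogen water and from 967 to 1230 in controls, a difference of -0.15 ± 0.13. None of the 3 was called, and within-group SD of 1388469_at, at 0.05, was smaller than at all but 0.593% of tested probe sets. Mean signals of 1370333_a_at and 1388469_at were above those of 99.8% and 99.7% of probe sets. How far signals that bright can still differ was not tested.

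Igfals encodes the acid-labile subunit, which binds IGF-I and its binding protein in serum and is made in liver under growth hormone control. Signals were 802, 949, 696 and 920 on hydrogen water arrays 1 to 4, against 1457, 1073, 892 and 1006 on control arrays 1 to 4. Control array 1 was the highest and hydrogen water array 3 the lowest of the 8, and the groups overlapped through control array 3 after normalization. As deposited they did not overlap, at 579 to 925 with hydrogen water and 987 to 1773 in controls. The part of array brightness in this was not tested. The difference was -0.38 ± 0.14 (SE), or 1.30-fold lower with hydrogen water, and it was not called. The sign was the same in all 19 other settings, from -0.70 without normalization to -0.24 without control array 1. The settings of filter, trend or block cannot change the difference.

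Among the hydrogen water arrays, array 3 was the lowest at Socs2, at all 3 Igf1 probe sets and at Igfals, and array 2 was the highest at the same 5. Stat5a ran the other way, with array 3 highest and array 2 lowest. Bcl6 and the 2 Cish probe sets did not follow that order. The control arrays showed no such shared order: control array 3 was lowest at Socs2 and Igfals but highest at 2 of the Igf1 probe sets. These orders rest on 4 arrays per group and are given as a description. The Gapdh 3′ to 5′ log2 ratio was 0.42, 0.46, 0.27 and 0.36 on hydrogen water arrays 1 to 4. It too was lowest on array 3 and highest on array 2. The beta-actin ratio was also highest on array 2 but lowest on array 1. The part of RNA integrity in these orders was not tested.

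**Figure D3:**
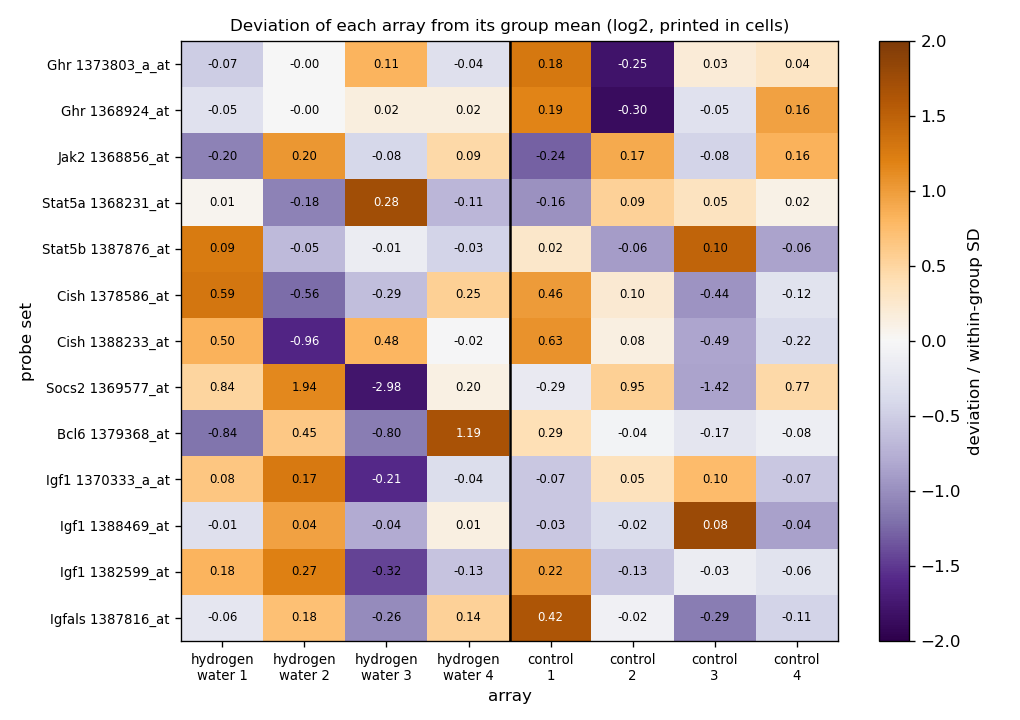
Each cell prints the deviation of 1 array from the mean of its own group on the log2 scale, for the 13 probe sets (rows) and the 8 arrays (columns, hydrogen water left); colour gives the same deviation divided by the within-group SD. Hydrogen water array 3 is at -2.98 for Socs2 and below its group mean at the Igf1 and Igfals probe sets.

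The other genes of the pathway were taken from 4 lists drawn up from general knowledge, each gene represented by its brightest tested probe set. Earlier results of these data were known when the lists were chosen. Calls within them, and how often they recur over settings, are therefore a description and add no independent support. In the fit across all probe sets, 78 of 9106 genes, or 0.857%, passed, and 12.2% had an unadjusted limma p under 0.05. Receptor-proximal partners of the pathway (other JAK, STAT and SOCS proteins, phosphatases and adaptors) had 30 of 36 genes tested: 1 rose, 0 fell and 29 did not pass, 3 had an unadjusted p under 0.05, and the median difference was -0.01, against 0.00 over all tested probe sets. The gene that rose was Stat3, which carries interleukin-6 and related signals. Its log2 signal was 9.61 ± 0.23 with hydrogen water and 8.71 ± 0.29 in controls (SD, n = 4 each), a difference of 0.91 ± 0.15 (SE; limma adjusted p = 0.0226), and the 2 groups did not overlap.

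Stat3 thus differed in the same direction as Stat5a and Stat5b, and its second probe set differed by 0.77 ± 0.11 (SE; limma adjusted p = 0.0107). The call at the brighter probe set was lost, at adjusted p-values up to 0.106, without hydrogen water array 1, 3 or 4, without control array 1 or 2, in unnormalized arrays and with a constant prior variance. Pias4 and Pias3, inhibitors of activated STAT proteins, differed by -0.42 ± 0.15 and 0.43 ± 0.19 (SE), and Irs2, an insulin receptor substrate, by -0.40 ± 0.19. None passed, and without control array 2 Pias3 differed by 0.26. A second tested Pias4 probe set differed by -0.12 ± 0.19 (SE). Prlr, the prolactin receptor, which uses the same kinase and STAT5, differed by -0.80 ± 0.65 at its brightest probe set and by -1.30 ± 0.56 and -1.17 ± 0.46 (SE) at the other two tested. None of them passed; Prlr lies outside the naming rule and was chosen after its values were seen. The SOCS genes Socs1 and Socs3 were too dim to be tested.

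The IGF axis, meaning IGF receptors, binding proteins and their proteases, had 9 of 16 genes tested, and limma passed 0. An unadjusted limma p under 0.05 was found for 1, against 12.2% of all genes. The median difference was 0.07. Igfbp1, a binding protein that insulin represses, had signals of 5033, 4081, 2320 and 2493 on hydrogen water arrays 1 to 4, against 1035, 1769, 3937 and 1707 on control arrays 1 to 4. All but control array 3 of the controls were below all hydrogen water arrays. The difference was 0.82 ± 0.36 (SE; limma adjusted p = 0.386), and 0.54 without control array 1. Igfbp4, Igfbp3, which carries most IGF-I in blood, and the insulin receptor Insr differed by 0.22 ± 0.11, 0.17 ± 0.14 and -0.15 ± 0.14, the first 2 turning negative without normalization. A second tested Igfbp3 probe set had the opposite sign, at -0.10 ± 0.14 (SE).

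Liver genes set by the growth hormone pattern or differing between the sexes had 26 of 34 genes tested. Again limma passed 0, with 8 at an unadjusted p under 0.05, against 12.2% of all genes, and the median difference was 0.02. Onecut1, a homeodomain factor that growth hormone induces in rat liver, had signals of 698, 822, 185 and 127 on hydrogen water arrays 1 to 4, against 1507, 3671, 1417 and 3385 on control arrays 1 to 4. The groups did not overlap, with hydrogen water arrays 3 and 4 lowest. At this brightest probe set the difference was -2.73 ± 0.57 (SE; limma adjusted p = 0.0577), and at a second, 1387760_a_at, it was -2.54 ± 0.47 and passed (limma adjusted p = 0.0331). The brighter one passed in 6 of 19 other settings.

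Foxa1, a pioneer factor of liver genes, differed by -0.56 ± 0.13 (SE; limma adjusted p = 0.0688) and Cebpa, a factor of the differentiated hepatocyte, by -0.54 ± 0.16 (0.171), with 5 of 5 tested Cebpa probe sets lower. Foxa1 passed in 3 of 19 other settings (no normalization, median centring and without control array 1) and Cebpa in 2 (no normalization and without control array 3). Nr1i3, the xenobiotic receptor CAR, differed by 0.45 ± 0.13. A pair of cytochromes, which define the male and the female pattern in rats, is named outside the rule, with values already in view. Cyp2c11, the main male-specific form, ran from 6448 to 6704 with hydrogen water and from 5816 to 6609 in controls, a difference of 0.05 ± 0.05 that turned negative without normalization. Cyp2c12, the female-specific form, ran from 387 to 2417 with hydrogen water and from 589 to 1446 in controls, a difference of 0.32 ± 0.50 that turned negative without normalization or without hydrogen water array 2. Neither passed.

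Further STAT5 target genes, known mostly from other cell types, had 13 of 17 genes tested: 0 rose, 1 fell and 12 did not pass. An unadjusted limma p under 0.05 was found for 3, against 12.2% of all genes, and the median difference was 0.06. The gene that fell was Myc, a growth-promoting transcription factor. Its signals were 87.1, 73.8, 40.3 and 28.9 on hydrogen water arrays 1 to 4, against 321, 368, 233 and 187 on control arrays 1 to 4. Every hydrogen water signal was below every control signal, the difference was -2.31 ± 0.32 (SE; limma adjusted p = 0.0111), and Myc passed in all 19 other settings. Lpl, the lipoprotein lipase, differed by 0.49 ± 0.18, Fgf21, a hepatokine, by -1.44 ± 0.52 and Ccnd1, cyclin D1, by -0.94 ± 0.53 (SE); none passed. Fgf21 passed without normalization, and Ccnd1 differed by -0.51 without hydrogen water array 3 and by -0.49 without control array 1.

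**Figure D4:**
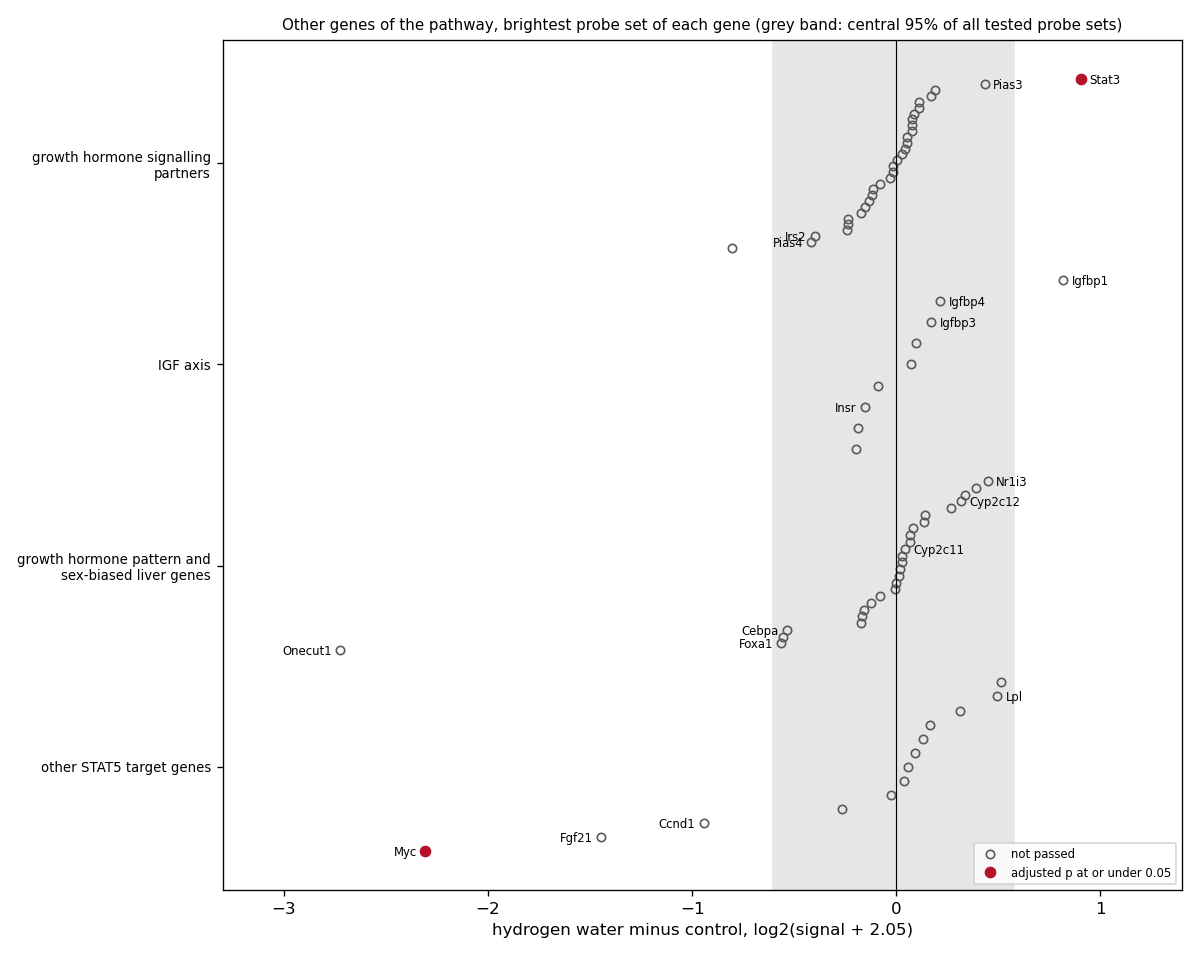
Each circle is 1 gene of the 4 lists at its difference, hydrogen water minus control, on the log2 scale; filled circles passed an adjusted p of 0.05 and the grey band holds the central 95% of all tested probe sets, from -0.60 to 0.58. Stat3 and Myc are the 2 filled circles, and Onecut1 lies farthest left without passing at the probe set shown.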

How the data were processed

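Biotin-labelled RNA of rat liver was measured on Affymetrix arrays, per the labels' protocols. The deposited values are linear intensities of 31099 probe sets, made by the authors with MAS5, per the submitters' processing notes; no version or scaling target is given in the sources used here, and detection calls were not used. The 8 arrays were quantile-normalized, log2 was taken after adding 2.05, which is 10% of the overall median signal of 20.5. The 57 control probe sets were left out, and the 15521 of 31042 others with a mean at or above the median were tested with lmFit and eBayes (trend) of limma 3.58.1 in R 4.3.3, with Benjamini-Hochberg adjustment at 0.05 and no covariate. Each SE uses the variance moderated by eBayes, and errors of the 13 probe sets come from the same model fitted without the filter. The fit was also run on simulated data with planted differences, independent noise and no array effects. That differs from these arrays, and nothing here rests on it.

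Gene names came from the platform annotation, where 20826 probe sets have a single symbol. Genes were named by rule: all members, and of each list the genes that passed and then those with the smallest p, up to 4. The members and lists were chosen with earlier results of these data known. Alternatives were no normalization, median centring, cyclic loess, spike-in scaling with 18 probe sets, a pseudocount of 0 or of 50% of that median, a filter at the 75th percentile or none, no trend, weights per array, a block for the replicate number and leaving out each array. Replicate numbers are shared between the groups; the deviations of same-numbered arrays correlated at -0.10, 0.04, 0.19 and -0.00, so the numbers were not treated as pairs.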

Additional observations from a re-analysis of the deposited data

Results flagged for a closer look

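In 5 of 72 sets of 4 arrays, 1 array stood apart from the other 3 by more than the 95% limit of Dixon's gap-to-range ratio, and chance alone gives about 5%. None of these sets belongs to the 13 growth hormone to STAT5 probe sets. Foxa1 was low on 1 control array, at a log2 signal of 6.78 against 7.17 for the nearest control (ratio 0.846). Cebpa was low on 1 control array, at 9.77 against 10.30 (ratio 0.862). Cyp2c11 was low on 1 control array, at 12.51 against 12.67 (ratio 0.88). The 3′ to 5′ log2 ratio of beta-actin was low on 1 hydrogen water array, at 1.56 against 1.66 (ratio 0.859), and high on 1 control array, at 1.65 against 1.59 (ratio 0.94).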

How the results depend on the processing

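The count of called probe sets, 127, was 505 without normalization, where the median difference of tested probe sets was -0.33, and 64 without a trend in the prior; with 1 array left out it ran from 55 to 197. It was 61, 55 and 68 without hydrogen water array 1, 3 and 4, and 61, 197 and 58 without control array 2, 3 and 4. Of the 13 growth hormone to STAT5 probe sets 2 were called; the count was 0 with the 75th percentile filter, which left Cish untested, and 2 in each fit with 1 array left out. Of the other pathway genes 2 passed, Myc and Stat3. That count was 5 without normalization, 4 with median centring, 1 without a trend, and 1 to 3 with 1 array left out. The cause was not tested except for the filter. Without normalization Igfbp4, Igfbp3, Cyp2c11 and Cyp2c12 turned to -0.094, -0.154, -0.173 and -0.0047, and with 1 array left out Cyp2c12 ran from -0.11, without hydrogen water array 2, to 0.77. With the replicate number as a block the 3 counts were 178, 3 and 3, with Socs2 and Onecut1 added; 1 of 4 hydrogen water arrays correlated best with its own number, so this pairing is only a number. Signals below the median of all values, as for Cish with hydrogen water and for Socs2 on hydrogen water array 3, limit how well a fold can be sized.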

Other observations

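Genes whose array-to-array deviations most resembled those of 3 members were taken by rule, as Pearson correlations of deviations from the group means over the 8 arrays. They are a description: with 12229 to 12231 probe sets compared over 8 arrays, the highest values are extreme by construction. For Cish the 5 highest were Xpo6 (0.97), Elof1, Slc39a1, Tmem63b and Ube2q2 (0.95), against 0.76 for the 2 Cish probe sets with each other. For Socs2 they were Abhd5 (0.99), Nubp1, Foxn3, Lsm14a and Utp20 (0.97). For Igf1 they were Wdr59 (0.97), Etaa1, Pigv, Pds5b and Cyb561d2 (0.96). None of these 15 genes was called between hydrogen water and control.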
